A study of Mus musculus with 6 samples.

Results

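The respiratory chain subunits described here are 56 nuclear genes, of 17558 genes in the deposited expression table, taken by name from a list of structural subunits of complexes I to IV. The list holds 32 subunits of complex I, 4 of complex II (succinate dehydrogenase), 7 of complex III and 13 of complex IV (cytochrome c oxidase), and it includes 3 muscle-type complex IV genes, Cox6a2, Cox7a1 and Cox8b. All 56 were found and all 56 passed the filter on low counts. RNA was sequenced from C2C12 cells, an immortalized mouse myoblast line that fuses into myotubes in low serum, harvested 48 h after a change to medium with 2% horse serum and an insulin, transferrin and selenium supplement. The sample records also list 10% fetal bovine serum for every library. There were 3 groups of 2 libraries. Control cells stably carried a scrambled hairpin (shScr, genotype WT in the labels), and the others stably carried a hairpin against Pkm1 (shPkm1, Pkm1 knockdown) or Pkm2 (shPkm2, Pkm2 knockdown), the 2 splice forms of pyruvate kinase M. All groups were differentiated for the same time, so no undifferentiated culture is part of the comparison. The labels do not say whether the libraries of a group came from separate cultures or how many hairpins or clones were used, so p-values measure the spread between these libraries, which may be technical.

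Complex I takes electrons from NADH, complex II from succinate, and both pass them through ubiquinone to complex III, cytochrome c and complex IV, where oxygen is reduced. Complexes I, III and IV pump protons as they do so, and complex II does not. Complex IV has paralogous small subunits, of which Cox6a2, Cox7a1 and Cox8b are the forms of contractile muscle and Cox6a1, Cox7a2 and Cox8a the forms found in most tissues.

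The promoters of 45 of the 56 subunits were matched in RefSeq (GRCm38.p6, from 250 bases before to 50 bases after the annotated start). They are shown for 4 genes whose transcripts are described in detail. These are a muscle-type gene, its ubiquitous partner, and a pair of subunits that hold a pair of motifs known from respiratory promoters. That pair were the only ones of the 45 with both of these motifs, so they are not typical of the list. Each run covers 120 bases before and 30 bases after the start, read 5′ to 3′ along the gene, and all 4 genes lie on the minus strand. Capitals mark every match to 4 motifs: CANNTG (the E-box, bound by MyoD-type factors), TATAAA (the TATA box), TTCCGG (the core of ETS sites such as that of NRF2) and CGCANGCG (the core of NRF1 sites). The printed runs hold E-boxes and a TATAAA match in Cox8b, an E-box and an ETS core in Cox8a, and ETS and NRF1 cores in Cox6a1 and Sdhd. In Cox8b the TATAAA match and the second E-box lie after the annotated start, within the last 30 bases of the run.
Cox8b, chr7:140900417-140900566: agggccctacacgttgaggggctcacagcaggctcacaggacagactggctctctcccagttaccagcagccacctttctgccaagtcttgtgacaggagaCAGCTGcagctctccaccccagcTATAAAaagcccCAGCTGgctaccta
Cox8a, chr19:7217587-7217736: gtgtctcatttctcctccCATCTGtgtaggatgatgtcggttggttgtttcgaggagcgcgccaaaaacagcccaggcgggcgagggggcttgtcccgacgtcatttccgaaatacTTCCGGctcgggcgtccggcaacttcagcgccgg
Cox6a1, chr5:115348929-115349078: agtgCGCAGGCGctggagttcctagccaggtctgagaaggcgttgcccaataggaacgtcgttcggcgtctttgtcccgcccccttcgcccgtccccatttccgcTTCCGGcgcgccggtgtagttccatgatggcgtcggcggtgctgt
Sdhd, chr9:50603820-50603969: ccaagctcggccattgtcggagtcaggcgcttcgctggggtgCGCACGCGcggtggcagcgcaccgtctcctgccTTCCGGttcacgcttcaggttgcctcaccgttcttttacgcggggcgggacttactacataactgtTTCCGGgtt

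Both strands of the full 300-base windows were searched, and a match is a description of letters, not of a bound site. CGCANGCG was present in 12 of the 45 subunit promoters (26.7%), against 9.22% of the promoters of all 27025 genes in the table. TTCCGG was present in 18 of 45 (40.0%), against 16.7% of all genes. CANNTG was present in 31 (68.9%, all genes 75.0%), CAGCTG, a subset of it, in 5 (11.1%, all genes 18.3%), TATAAA in 5 (11.1%, all genes 15.7%), CCAAT in 17 (37.8%, all genes 41.1%) and the MEF2 consensus in 0 (all genes 0.636%). Cox8b was one of the 5 promoters with CAGCTG and one of the 5 with TATAAA. The 56 genes lie on 17 chromosomes, with at most 7 on 1 chromosome.

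The libraries held 18216896 to 19796036 estimated counts each. Pkm was checked first: its summed TPM (a length-scaled share of a library's transcripts) was 1644 and 2136 in shScr, 1561 and 1613 in shPkm1, and 2978 and 2932 in the shPkm2-labelled libraries. The Pkm1 transcript (NM_001253883.1) was lower in shPkm1 (log2 fold change -1.66 ± 0.076 SE, adjusted p = 0.00272) and in the shPkm2-labelled libraries (-1.58, adjusted p = 0.00124). The Pkm2 transcript (NM_011099.3) was not lower in the shPkm2-labelled libraries (0.63, adjusted p = 0.0656, edgeR quasi-likelihood test over 33433 transcripts), so that group is called by its label throughout. The labelled cell type was checked by 10 myotube genes, which summed to 43052 and 32111 TPM in shScr, 14127 and 15290 in shPkm1, and 320 and 331 in the shPkm2-labelled libraries. Summed TPM of 5 proliferation genes was 95.4 and 140 in shScr, 268 and 268 in shPkm1, and 819 and 757 in the shPkm2-labelled libraries. Summed TPM of 5 myoblast genes was 2866 and 3045 in shScr, 2556 and 2708 in shPkm1, and 1090 and 1000.1 in the shPkm2-labelled libraries, where 4 of the 5 were called lower than in shScr and 1, Myf5, higher (1.74). Sums of markers of other cell types were low and higher with both hairpins: 5 osteoblast genes gave 4.84 to 7.81 TPM in shScr and 15.7 to 18.9 in the hairpin libraries, 5 adipocyte genes 7.63 to 8.03 and 19.8 to 23.1, and 3 macrophage genes 3.33 to 6.31 and 14.3 to 18.9. Most of each sum came from 1 gene (Runx2, Cebpa and Cd14), and not every member followed it: Csf1r was higher in shPkm1 (1.47) but lower in the shPkm2-labelled libraries than in shScr (-1.81) or shPkm1 (-3.27). Ibsp was at 0 in every library, and Adipoq and Plin1 were at 0.08 TPM or less. These marker levels moved with the comparisons with shScr below, and their part in the subunit results was not tested. In bulk RNA, fewer cells of a type and less RNA per cell cannot be told apart.

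Most subunits of every complex fell with the Pkm1 hairpin. Of 56, 50 were lower in shPkm1 than in shScr and 0 were higher (edgeR quasi-likelihood test, Benjamini-Hochberg adjusted p under 0.05 over 12643 genes). Over all tested genes 31.4% were called lower and 31.8% higher. The median log2 fold change of the subunits was -0.77, against 0.00 over all genes tested, and 55 of 56 lay below the median of all genes. In the shPkm2-labelled libraries, 55 of 56 were lower than in shScr and 0 were higher, where 34.2% of all genes were called lower and 33.9% higher, with a median of -0.80 against 0.01 over all genes. Both comparisons use the same 2 shScr libraries and are not independent.

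**Figure D1:**
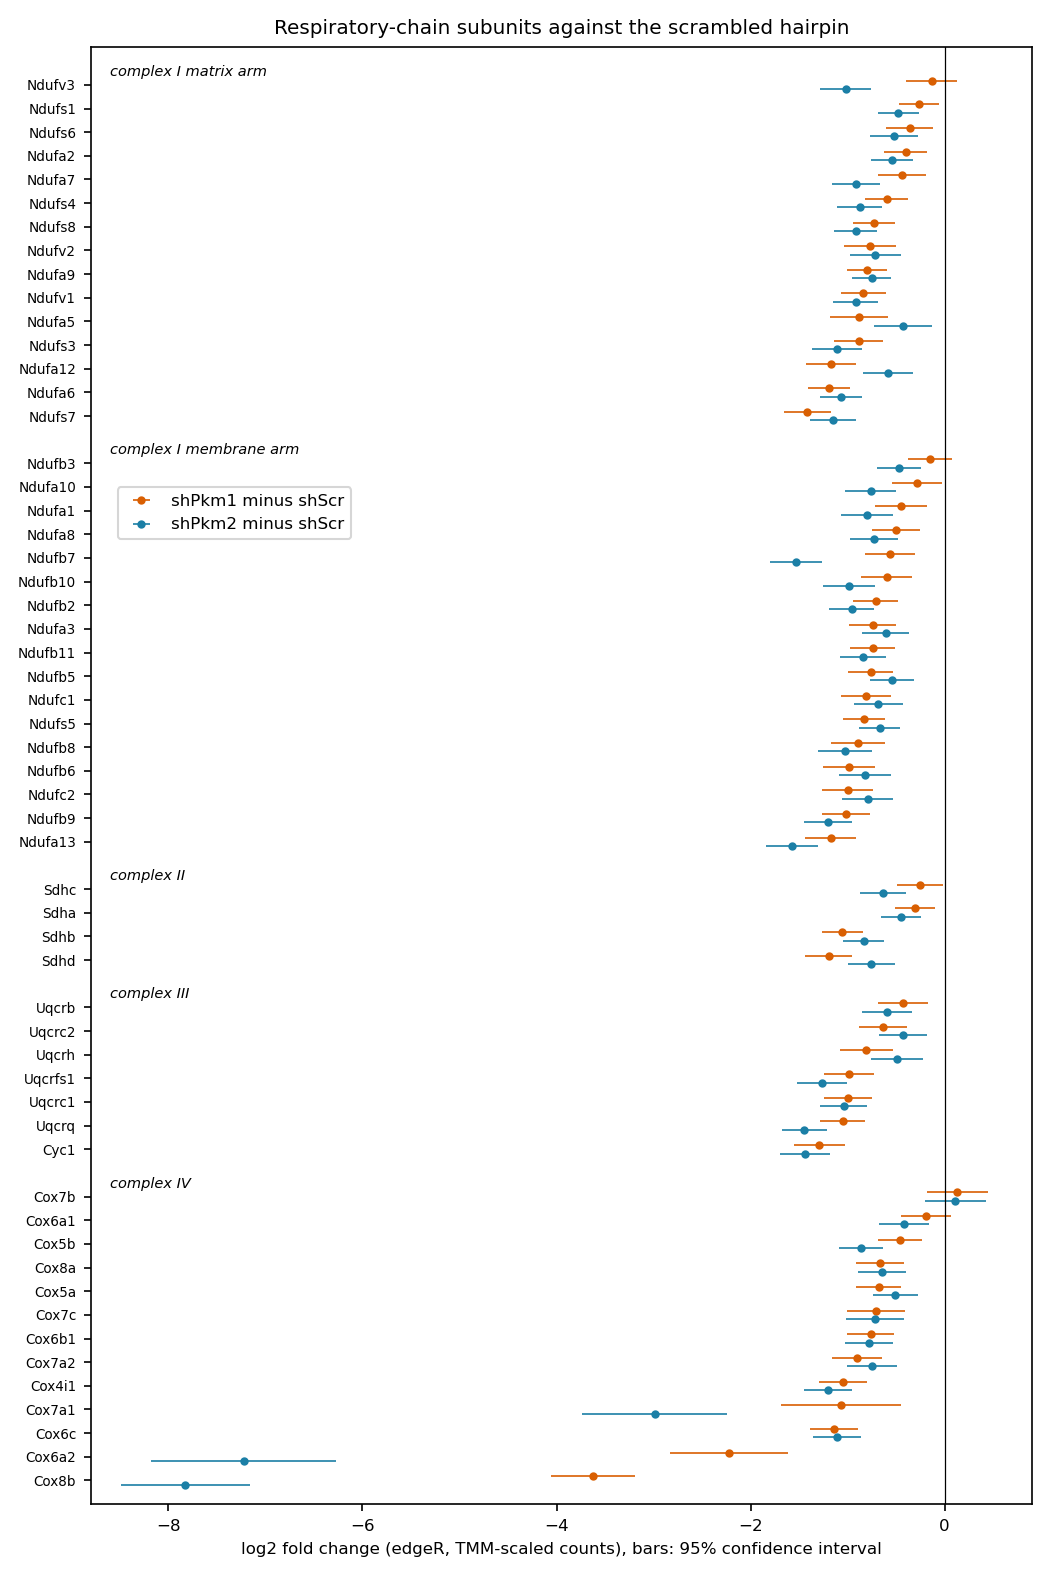
Log2 fold changes of the 56 subunits against shScr (x axis, edgeR), 1 row per gene grouped by complex and ordered by the shPkm1 value, with 95% confidence intervals. Points lie left of 0 for every gene except Cox7b, and Cox6a2, Cox7a1 and Cox8b lie far left of the rest in the shPkm2-labelled libraries.

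The size of these falls depends on how libraries are scaled. The TMM factors used here, which set the bulk of genes equal between libraries, ranged from 0.856 to 1.12 and were lowest in shScr. As a share of all TPM, the subunits fell less: they summed to 23901 and 24344 TPM in shScr, 18276 and 18626 in shPkm1, and 17435 and 18538 in the shPkm2-labelled libraries, which do not overlap with shScr. On that scale 47 of 56 had a lower mean in shPkm1 and 51 of 56 in the shPkm2-labelled libraries. Tested on that scale with limma on log2(TPM + 1), 37 were called lower in each comparison, where 13.9% and 16.8% of all tested genes were called lower and 50.5% and 54.1% higher, and the all-gene medians were 0.34 and 0.40. With library totals only, 43 and 42 were called lower, where 21.0% and 21.4% of all genes were, and the all-gene medians moved to 0.19 and 0.33. Cox7b was called higher in each comparison with either setting. Higher calls made up 50.3% of all calls in shPkm1 in the reported fit, 65.8% with library totals and 78.5% on log2(TPM + 1), and 49.8%, 69.3% and 76.3% in the shPkm2-labelled libraries. Relative to the all-gene median, the subunit median stayed between -0.69 and -0.87 in shPkm1 and between -0.69 and -0.92 in the shPkm2-labelled libraries, over all 15 alternatives to the reported fit. In these, 36 of the 50 and 36 of the 55 genes kept their call under every alternative.

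**Figure D2:**
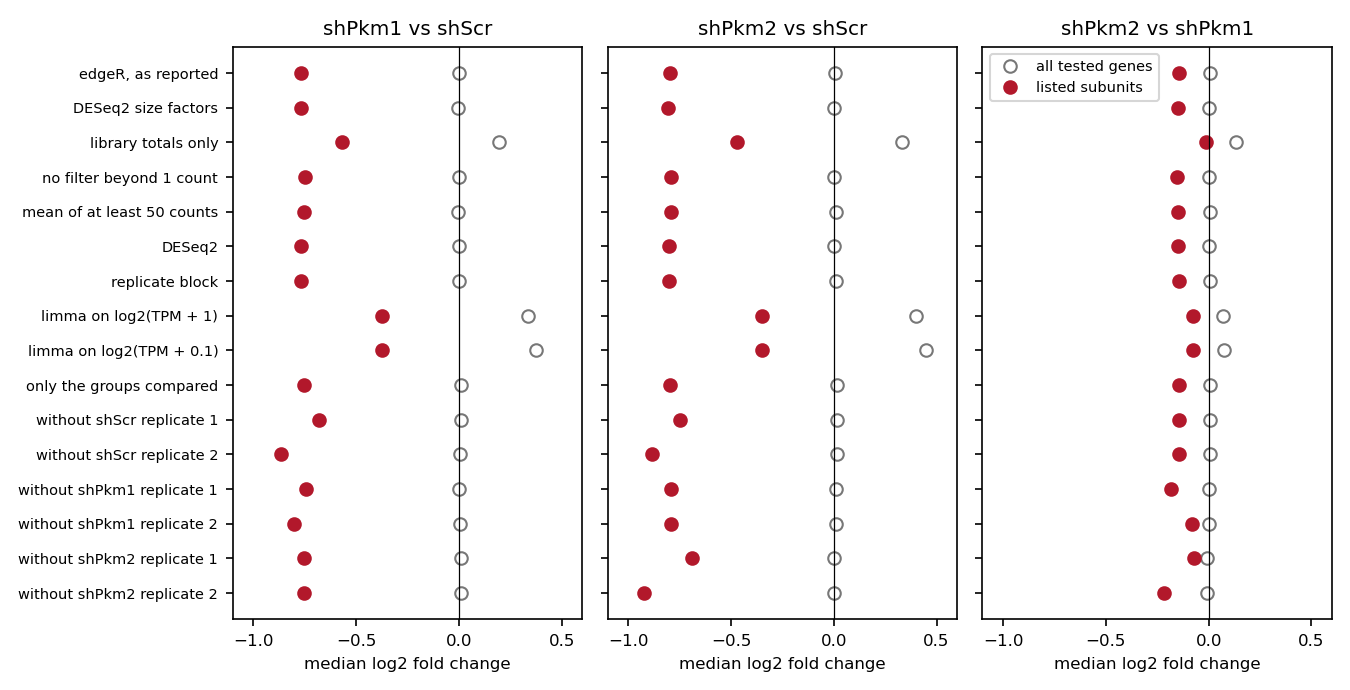
Median log2 fold change (x axis) of the 56 subunits (filled) and of all tested genes (open) for the reported fit and each alternative (rows), 1 panel per comparison. Library totals and TPM move both medians to the right together, and the subunits stay below all genes in both comparisons with shScr.

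Between the 2 hairpins most subunits differed little. In the shPkm2-labelled libraries against shPkm1, 15 were lower and 4 higher, where 27.3% of all genes were called lower and 25.7% higher, so the share of subunits called was near or below the background. The subunit median was -0.14, and 50 of 56 lay within 1.5-fold in either direction, as did 65.0% of all tested genes. The median was -0.08 without shPkm1 replicate 2, -0.07 without shPkm2 replicate 1 and -0.22 without shPkm2 replicate 2. Of the 50 genes lower in both comparisons with shScr, 35 were not called between the hairpins, 11 were lower and 4 were higher in the shPkm2-labelled libraries. With library totals only, 11 of the 56 were higher and 9 lower, where 33.9% of all tested genes were called higher and 21.3% lower. The counts rest on single libraries: they moved under each library left out, and the share of all tested genes called also moved. The subunit median was -0.18 without shPkm1 replicate 1, and -0.14 without shScr replicate 1 or shScr replicate 2.

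**Figure D3:**
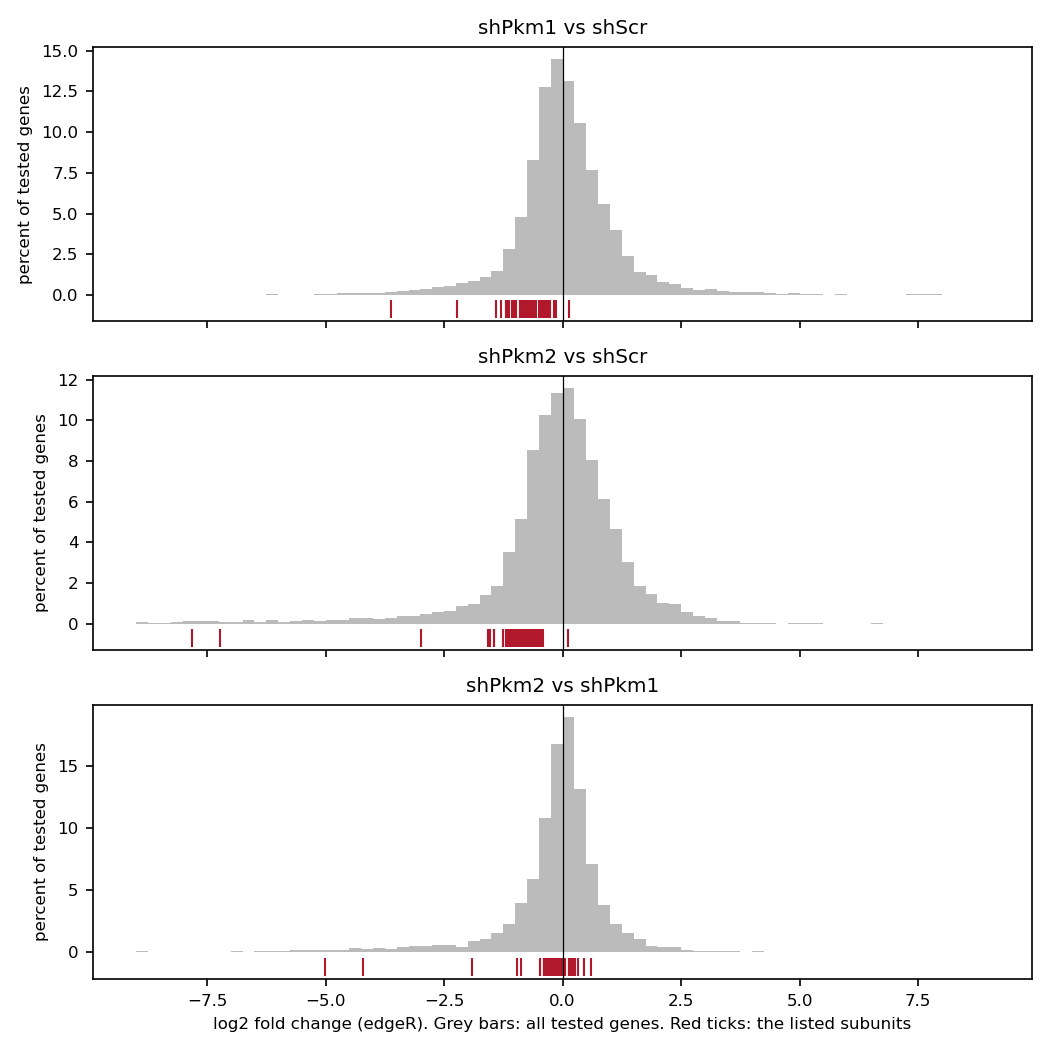
Distribution of log2 fold changes over all tested genes (grey bars, percent of genes) with the 56 subunits as red ticks, 1 panel per comparison. Against shScr the ticks crowd left of 0, and between the hairpins 50 of 56 lie within 1.5-fold of 0, the others being Cox6a2, Cox8b, Cox7a1, Ndufb7 and Ndufv3 on the left and Ndufa12 on the right.

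Cox8b and Cox6a2 showed the largest falls of the 56 in both comparisons with shScr, and with Cox7a1 they showed the 3 largest in the shPkm2-labelled libraries. Cox8b stood at 290 and 224 TPM in shScr, 24.9 and 29.96 in shPkm1, and 1.26 and 1.78 in the shPkm2-labelled libraries. The 3 groups did not overlap, and those last libraries rest on 4 and 6 estimated counts. Its log2 fold change was -3.62 ± 0.20 (SE) in shPkm1 (adjusted p = 1.08e-08) and -7.82 ± 0.31 in the shPkm2-labelled libraries (adjusted p = 1.58e-10), and -4.20 between the hairpins (adjusted p = 2.51e-06). Cox6a2 stood at 295 and 145 TPM in shScr, 72.1 and 54.7 in shPkm1, and 2.02 and 2.07 in the shPkm2-labelled libraries. The shScr libraries differed about as much from each other as the lower of them did from the higher shPkm1 library. Its log2 fold change was -2.22 ± 0.28 in shPkm1 (adjusted p = 1.76e-05) and -7.22 ± 0.44 in the shPkm2-labelled libraries, and without shScr replicate 1 it was -1.49 and -6.49. Between the hairpins it was -5.00 (adjusted p = 1.54e-06).

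Cox7a1 stood at 19.96 and 17.1 TPM in shScr, 12.8 and 10.3 in shPkm1, and 4.06 and 2.35 in the shPkm2-labelled libraries. It had the lowest mean TPM of the 56 in shScr and shPkm1, while Cox6a2 and Cox8b were lower in the shPkm2-labelled libraries. It averaged 37.8 estimated counts per library. The order of the groups was that of the other muscle-type genes, without overlap. Its log2 fold change was -1.07 ± 0.29 in shPkm1 (adjusted p = 0.00531, and 0.0615 without shPkm1 replicate 2, with edgeR in both) and -2.99 ± 0.35 in the shPkm2-labelled libraries (adjusted p = 5.09e-06).

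Among their ubiquitous partners, Cox8a, the most abundant subunit in shScr, stood at 1506 and 1764 TPM in shScr, 1348 and 1329 in shPkm1, and 1328 and 1514 in the shPkm2-labelled libraries, and fell by 0.67 and by 0.65 on the log2 scale. Cox7a2 stood at 241 and 281 TPM in shScr, 178 and 186 in shPkm1, and 191 and 232 in the shPkm2-labelled libraries, and fell by 0.90 and by 0.75, in shPkm1 close to the fall of Cox7a1. Cox6a1 was at 1187 and 1199 TPM in shScr, 1307 and 1427 in shPkm1, and 1171 and 1277 in the shPkm2-labelled libraries. Its log2 fold change was -0.19 in shPkm1 (95% interval -0.45 to 0.07, not called, but -0.28 and called without shScr replicate 2, adjusted p = 0.0264 by edgeR). It was -0.42 in the shPkm2-labelled libraries (adjusted p = 0.00664 by edgeR), which turned to 0.04 on the TPM scale and lost its call without shPkm2 replicate 1 (-0.31, adjusted p = 0.109).

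Within each pair, the muscle form took its highest mean share in shScr and its lowest in the shPkm2-labelled libraries. Cox8b made up 13.7% ± 3.47 (SD, n = 2) of the TPM of Cox8b and Cox8a in shScr, 2.01% ± 0.278 in shPkm1 and 0.106% ± 0.0160 in the shPkm2-labelled libraries. Cox6a2 made up 15.3% ± 6.45, 4.46% ± 1.09 and 0.167% ± 0.00732 of its pair in the same order. Cox7a1 made up 6.70% ± 1.36, 5.98% ± 1.02 and 1.54% ± 0.763 of its pair, and its shScr and shPkm1 libraries overlapped. The shares were not tested: an exact permutation test of 2 libraries against 2 cannot go below p = 0.333, and no model was fitted to them.

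**Figure D4:**
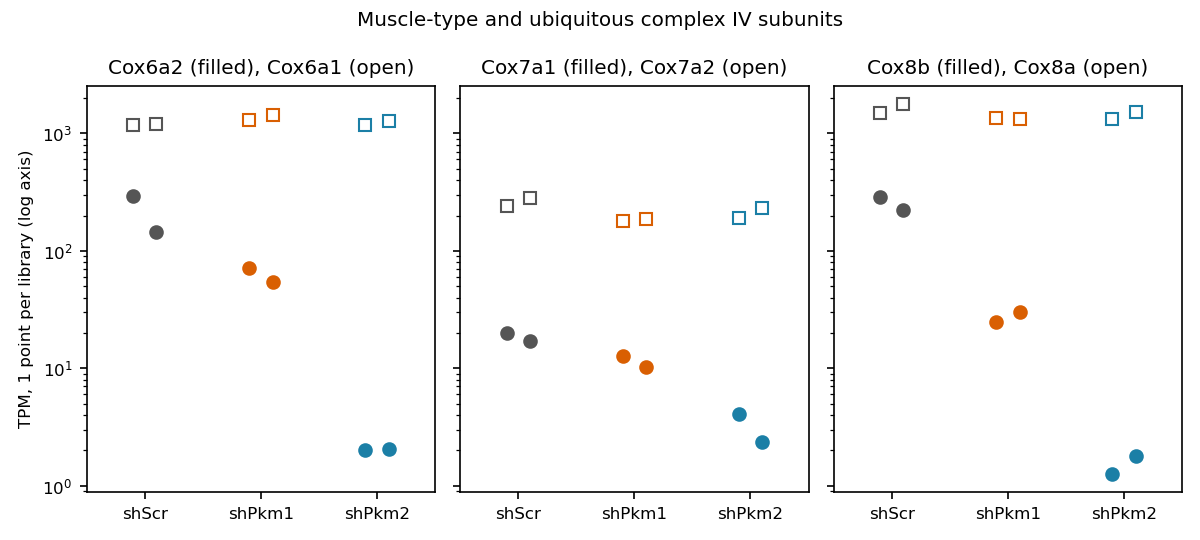
TPM (log axis) of each muscle-type complex IV gene (filled) and its ubiquitous partner (open), 1 point per library and 1 panel per pair. The muscle forms step down from shScr to shPkm1 to the shPkm2-labelled libraries, while the ubiquitous forms range from 1171 to 1427 TPM for Cox6a1, 178 to 281 for Cox7a2 and 1328 to 1764 for Cox8a over the 6 libraries.

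By Pearson correlation of log2 CPM over the 6 libraries, which share their groups, the subunits most like Cox8b were Cox5b (r = 0.991), Ndufb7 (0.983) and Ndufa7 (0.982). Those most like Cox6a2 were Cox7a1 (0.986), Ndufb7 (0.979) and Ndufb3 (0.974). These values describe the samples and carry no test.

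Among the other complex IV genes, Cox6c and Cox4i1 fell the most. Cox4i1, a core regulatory subunit, stood at 1310 and 1423 TPM in shScr, 824 and 902 in shPkm1, and 789 and 838 in the shPkm2-labelled libraries (log2 fold changes -1.05 and -1.20). Cox6c stood at 862 and 1238, 635 and 597, and 669 and 651 TPM (-1.14 and -1.11). Both were lower in every library of either hairpin than in either shScr library. Cox5a, Cox6b1 and Cox7c, further nuclear subunits around the catalytic core, fell by 0.51 to 0.78. Cox5b fell by 0.46 and by 0.86, and was lower between the hairpins (-0.40, adjusted p = 0.00630 by edgeR), a call lost without shPkm1 replicate 2 (adjusted p = 0.0764) or shPkm2 replicate 1 (0.0855).

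Cox7b was the one subunit with positive log2 fold changes in the reported fit on TMM-scaled counts, while 9 subunits in shPkm1 and 5 in the shPkm2-labelled libraries had a higher mean TPM than in shScr. It stood at 155 and 123 TPM in shScr, 206 and 195 in shPkm1, and 193 and 220 in the shPkm2-labelled libraries. On TPM the hairpin libraries lay above shScr without overlap, but on TMM-scaled CPM (counts relative to library size) they overlapped (112 and 78.2 in shScr, 105 and 104 in shPkm1, 93.2 and 112 in the shPkm2-labelled libraries). Its log2 fold changes were 0.13 (95% interval -0.19 to 0.45) and 0.11 (-0.21 to 0.43) and were not called. Without shScr replicate 1 they were 0.41 and 0.40 and were called higher (adjusted p = 0.00121 and 0.00169 by edgeR), and library totals only and limma on TPM also called them higher.

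All 7 complex III genes were lower in both comparisons, with medians of -0.99 and -1.04. Cyc1, cytochrome c1, which hands electrons to cytochrome c, stood at 740 and 687 TPM in shScr, 384 and 382 in shPkm1, and 349 and 375 in the shPkm2-labelled libraries. The hairpin libraries lay close together and well below shScr, with log2 fold changes of -1.29 ± 0.12 (SE) and -1.44 ± 0.12. Uqcrq fell by 1.05 and by 1.45, Uqcrfs1, the Rieske iron-sulphur protein, by 0.99 and by 1.26, and Uqcrc1, a core protein, by 1.00 and by 1.04. The smallest falls were those of Uqcrb in shPkm1 (-0.43, adjusted p = 0.0959 without shPkm1 replicate 2, by edgeR) and Uqcrc2 in the shPkm2-labelled libraries (-0.43, adjusted p = 0.0646 without shPkm2 replicate 1, and 0.03 on the TPM scale). Uqcrh fell by 0.81 and by 0.49, the latter not called without shPkm2 replicate 1 (-0.35, adjusted p = 0.0699). It was higher between the hairpins (0.32, adjusted p = 0.0484), a call that was lost without either shPkm1 library or shPkm2 replicate 2.

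Of the 15 complex I matrix arm genes, which hold the NADH site and the iron-sulphur clusters, 14 were lower in shPkm1 and 15 in the shPkm2-labelled libraries. Ndufs7, which carries the last cluster before ubiquinone, stood at 433 and 433 TPM in shScr, 201 and 223 in shPkm1, and 263 and 272 in the shPkm2-labelled libraries. It had the largest fall of the 53 genes outside the muscle-type group in shPkm1 (-1.42 ± 0.11, adjusted p = 2.90e-07 by edgeR) and fell by 1.15 in the shPkm2-labelled libraries. Ndufa6 fell by 1.19 and by 1.06, and Ndufs3 by 0.89 and by 1.11. Ndufv1 and Ndufv2, which form the NADH-oxidizing module, fell by 0.84 and 0.77 in shPkm1 and by 0.92 and 0.71 in the shPkm2-labelled libraries. Ndufs1, the largest subunit of the arm, changed least among those called in shPkm1 (-0.26, adjusted p = 0.0282). Its call was lost under 5 of the 6 left-out libraries and on the TPM scale the value was 0.12.

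Of the matrix arm genes, 2 were called higher in the shPkm2-labelled libraries than in shPkm1, and 3 were called lower. Ndufa12 stood at 1081 and 999 TPM in shScr, 597 and 614 in shPkm1, and 935 and 976 in the shPkm2-labelled libraries, and was higher between the hairpins (0.59 ± 0.12, adjusted p = 0.000985 by edgeR). Ndufa5 stood at 182 and 163, 125 and 121, and 160 and 190 TPM (0.46, adjusted p = 0.0146). The Ndufa5 call was lost without either shPkm1 library or shPkm2 replicate 2, and its fall of 0.43 in the shPkm2-labelled libraries was not called without shScr replicate 1 (-0.23) or shPkm2 replicate 1 (-0.26).

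Ndufv3 showed the opposite order. It stood at 506 and 460 TPM in shScr, 520 and 555 in shPkm1, and 291 and 263 in the shPkm2-labelled libraries, so only the last group was low. Its log2 fold change was -0.13 in shPkm1 (95% interval -0.40 to 0.13), -1.02 ± 0.12 in the shPkm2-labelled libraries (adjusted p = 7.41e-06) and -0.89 between the hairpins (adjusted p = 4.40e-05, edgeR). Without shScr replicate 2 the shPkm1 value was -0.30 and was called (adjusted p = 0.0118).

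Ndufv3 has a short and a long transcript. The long form (NM_030087.2) includes 1 more coding exon, of 1092 bases at chr17:31527310-31528401 (plus strand, GRCm38, GENCODE M21), and encodes 468 amino acids, against 104 for the short form (NM_001083891.1). The short form stood at 463 and 422 TPM in shScr, 462 and 485 in shPkm1, and 243 and 217 in the shPkm2-labelled libraries. It was lower in the last group against shScr (-1.38, adjusted p = 0.00432) and between the hairpins (-1.12, adjusted p = 0.0132, edgeR over transcripts), and not called in shPkm1 (-0.26). The long form stood at 43.8 and 38.1, 58.2 and 70.1, and 48.5 and 46.0 TPM and was not called in any comparison. The long form made up 8.65% and 8.28% of Ndufv3 TPM in shScr, 11.2% and 12.6% in shPkm1, and 16.6% and 17.5% in the shPkm2-labelled libraries, without overlap between groups. The difference in share was not tested, and estimated counts divide reads that both forms share.

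**Figure D5:**
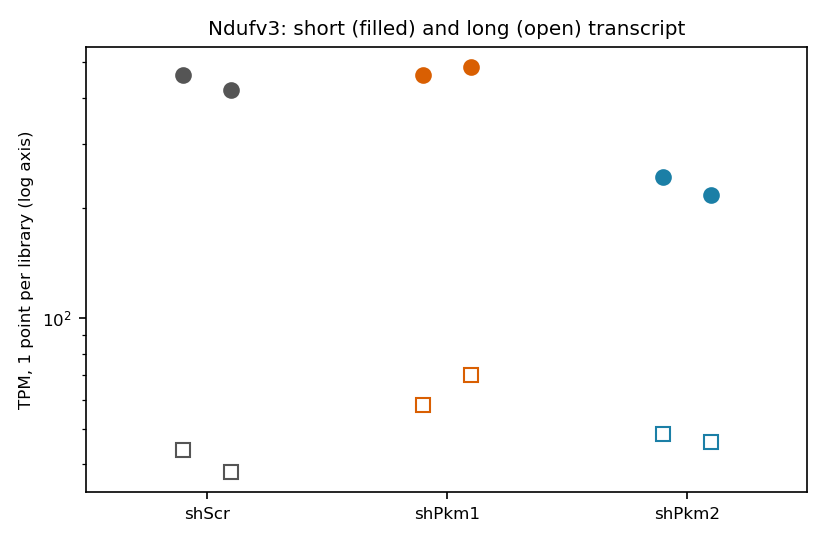
TPM (log axis) of the short (filled) and long (open) Ndufv3 transcript, 1 point per library. The short form is low only in the shPkm2-labelled libraries, at 243 and 217 TPM, and the long form stays between 38.1 and 70.1 TPM in every library.

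Over the 14 subunit genes with 2 or more transcripts tested, 34 transcripts were tested, of which 13 were lower in shPkm1, 17 in the shPkm2-labelled libraries and 1, the short Ndufv3 form, between the hairpins, with 0 higher in each. Over all 33433 transcripts tested, 5.36% were called lower and 5.47% higher in shPkm1, 9.32% and 7.91% in the shPkm2-labelled libraries, and 5.04% and 2.87% between the hairpins. Ndufs8 showed falls in a pair of forms: NM_001271443.1 fell by 0.62 and by 0.76 and NM_144870.5 by 1.10 and by 1.63.

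Of the 17 complex I membrane arm genes, 15 were lower in shPkm1 and 17 in the shPkm2-labelled libraries, with medians of -0.74 and -0.80. Ndufa13, also known as Grim-19, stood at 715 and 866 TPM in shScr, 407 and 501 in shPkm1, and 354 and 371 in the shPkm2-labelled libraries (-1.17 ± 0.12 and -1.57 ± 0.12). Both hairpin groups lay below shScr. Ndufb7 stood at 608 and 610 TPM in shScr, 485 and 589 in shPkm1, and 301 and 278 in the shPkm2-labelled libraries (-0.57, -1.53). It was lower between the hairpins (-0.97 ± 0.12, adjusted p = 1.93e-05 by edgeR), the largest such difference outside the muscle-type genes. Ndufb9 and Ndufb8 fell by 1.02 and 0.89 in shPkm1 and by 1.20 and 1.03 in the shPkm2-labelled libraries. Ndufb3 changed least, with -0.15 in shPkm1 (95% interval -0.38 to 0.08, not called) and -0.47 in the shPkm2-labelled libraries. Ndufa10 had -0.29 in shPkm1 (adjusted p = 0.0540) and -0.76 in the shPkm2-labelled libraries, and was called in shPkm1 only without shScr replicate 2 (-0.45).

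Of the 4 complex II genes, 3 were lower in shPkm1 and all 4 in the shPkm2-labelled libraries. Sdhb, the iron-sulphur subunit, stood at 370 and 380 TPM in shScr, 243 and 231 in shPkm1, and 293 and 285 in the shPkm2-labelled libraries (-1.05 and -0.83). Sdhd, a membrane anchor whose promoter is shown above, stood at 166 and 159, 93.5 and 92.9, and 126 and 139 TPM (-1.20 and -0.76). Both were lowest in shPkm1. Sdhd was higher between the hairpins (0.44, adjusted p = 0.00527 by edgeR), a call lost without shPkm1 replicate 1 or shPkm2 replicate 2. Sdha, the flavoprotein, had a TPM of 98.9 and 121 in shScr, 118 and 115 in shPkm1, and 115 and 106 in the shPkm2-labelled libraries, and the groups overlap. Its log2 fold changes of -0.30 and -0.45 were called, the first of them not without shPkm1 replicate 1 (adjusted p = 0.119 by edgeR) or shPkm1 replicate 2 (0.0612), and on the TPM scale they were 0.09 and 0.01. Sdhc, the other anchor, had -0.26 in shPkm1 (adjusted p = 0.0540) and -0.63 in the shPkm2-labelled libraries, and was called in shPkm1 without shScr replicate 2 (-0.37, adjusted p = 0.00211 by edgeR).

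Subunits and factors outside the 56 were listed for comparison. Of 10 further tested subunits (13 of 15 listed were in the table), 9 were lower and 1 higher in shPkm1, and 8 were lower and 0 higher in the shPkm2-labelled libraries. Uqcr11, of complex III, fell by 1.35 and by 1.58. Ndufa4 and Cycs (cytochrome c) fell in shPkm1 (-0.82 and -1.29) and were higher between the hairpins (0.66 and 0.67). Ndufa4l2 was the 1 called higher in shPkm1 (1.5), at 0.29 to 2.09 TPM over all libraries. It had 5 and 5 estimated counts in shScr, 19 and 14 in shPkm1, and 4 and 3 in the shPkm2-labelled libraries. Only shPkm1 reached the minimum count of 10, so the gene was tested only because it was high there. All 15 ATP synthase genes tested, of 18 listed, were lower in shPkm1 and 14 in the shPkm2-labelled libraries, with medians of -0.82 and -0.75. Between the hairpins 2 were higher, Atp5b (0.52) and Atp5pb (0.52), and 1 lower, Atp5e (-0.50).

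Assembly factors build the complexes without staying in them. A smaller part of them than of the subunits was called lower, a difference that was not tested. Of 50 tested, 31 were lower and 1 higher in shPkm1, and 33 were lower and 1 higher in the shPkm2-labelled libraries, with medians of -0.50 and -0.54. Uqcc1, for complex III, fell by 1.53 and by 1.74, and Cox14, for complex IV, by 1.27 and by 1.82. Cox20, which stabilizes Cox2 during complex IV assembly, was higher in shPkm1 (0.54, adjusted p = 0.00302), and Cmc2 in the shPkm2-labelled libraries (0.37, adjusted p = 0.0186, edgeR). The 13 mitochondrially encoded subunits had no transcripts in the deposited expression table and could not be analysed.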

How the data were processed

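Estimated counts and TPM per RefSeq transcript, deposited by the authors and named so per the file headers, were summed per gene. Per the submitters' processing notes the tools were HISAT, StringTie, Bowtie, RSEM and DESeq2 with build mm10, without stated roles or versions. Gene symbols came from a RefSeq table (17445 of 17558 genes). The estimated counts (48.0% to 50.7% of values exactly whole, zeros included) were rounded. Genes passing edgeR's filterByExpr (minimum count 10, total 15) were fitted with TMM factors, 1 coefficient per group and all 6 libraries, in edgeR 4.0.16 (R 4.3.3), with quasi-likelihood F-tests adjusted by Benjamini-Hochberg over 12643 genes at 0.05. The common biological coefficient of variation was 0.0851. On data simulated for shPkm1 against shScr, 98 of 100 genes changed by 1 (log2) and 59 of 100 changed by 0.5 were recovered. Of 12034 unchanged genes, 9 were called. Every simulated gene varied alike, near that common value, and only the changed genes moved, as many up as down. The simulation therefore does not cover data in which library composition shifts or most tested genes are called, as here. Alternatives were DESeq2 1.42.0, its size factors, library totals, other filters, a replicate block, limma 3.58.1 on log2(TPM + 1) or log2(TPM + 0.1), the compared groups alone, and leaving out each library, where the lone library of a group is assumed to vary like the others.

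The subunits, the other lists and the tests were chosen with earlier results of these data known. Named genes were Pkm, the complex IV pairs, the largest called changes and the smallest change of each class, genes with several tested transcripts, and the largest changes of each other list. A few others were named after their values were seen. The deposited FPKM values and the authors' group means were not used. Promoter letters came from RefSeq (GRCm38.p6). The NRF1 core was shortened and the MEF2 pattern replaced by its consensus after counts for longer or looser patterns had been seen. Exons came from GENCODE M21. The 11 subunits absent from the promoter table include Cox6a2.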

Additional observations from a re-analysis of the deposited data

How the results depend on the processing

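With library totals only, limma on log2(TPM + 1) and limma on log2(TPM + 0.1), 1 subunit (Cox7b) was called higher in each comparison with shScr, and the subunit medians were -0.57, -0.37 and -0.38 in shPkm1 and -0.47, -0.35 and -0.35 in the shPkm2-labelled libraries. On log2(TPM + 1) and log2(TPM + 0.1), 37 and 37 were lower in shPkm1 and 37 and 36 in the shPkm2-labelled libraries. Between the hairpins, library totals gave 11 higher, 9 lower and a median of -0.014, where 33.9% of all tested genes were higher and 21.3% lower. Both TPM fits gave 7 higher and 13 lower, where 26.7% and 25.8% of all tested genes were higher and 22.1% and 21.7% lower. The 2 compared groups alone gave 8 higher and 21 lower, where 31.2% of all tested genes were higher and 31.8% lower. On TPM with pseudocounts of 1 and 0.1, values of genes called in the reported fit turned positive in shPkm1 for Ndufs1 (0.12, 0.13), Ndufs6 (0.027, 0.027) and Sdha (0.089, 0.090), and in the shPkm2-labelled libraries for Ndufa5 (0.015, 0.015), Sdha (0.0077, 0.0078), Uqcrc2 (0.031, 0.032) and Cox6a1 (0.036, 0.036).

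Leaving out 1 library gave 44 to 54 lower in shPkm1 and 51 to 55 in the shPkm2-labelled libraries, 0 to 1 higher in each, medians of -0.92 to -0.69 in the latter, and 5 to 21 lower, 1 to 8 higher and medians of -0.22 to -0.07 between the hairpins. As shares of estimated counts, Cox6a2 was 5.60% in shPkm1 and 0.212% in the shPkm2-labelled libraries, Cox7a1 3.00% in shScr, 2.67% and 0.668%, and Cox8b 8.91%, 1.25% and 0.0653%. With the replicate number as a block, 50 and 55 subunits were lower than in shScr, and 15 lower and 3 higher between the hairpins. The numbers did not pair the samples (correlations of deviations -0.03, 0.04 and 0.05). With 2 libraries a group and 4 to 14 counts for Cox6a2 and Cox8b in the shPkm2-labelled libraries, the sizes of their falls are imprecise.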
